A study of Mus musculus with 2 samples.

Results

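Respiratory chain and ATP synthase subunits that are encoded in the nucleus were examined in tumor-infiltrating immune cells (TIIs) from control and creatine-treated mice. They were chosen by symbol, as the genes that start with Ndufa, Ndufb, Ndufc, Ndufs, Ndufv, Uqcr, Cox4i, Cox5, Cox6, Cox7, Cox8 or Atp5, together with *Sdha*, *Sdhb*, *Sdhc*, *Sdhd*, *Cyc1* and *Cycs*. Pseudogenes and the Ndufaf and Atp5s genes were left out. The rule gave 86 of the 31053 genes in the count tables, with 85 symbols, since *Atp5o* is listed under 2 identifiers. By complex they were 36 genes of complex I, 4 of complex II, 9 of complex III, *Cycs* alone for cytochrome c, 20 of complex IV and 16 of ATP synthase.

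The respiratory chain sits in the inner mitochondrial membrane. Complexes I and II pass electrons to ubiquinone, complex III hands them on to cytochrome c, and complex IV gives them to oxygen. Complexes I, III and IV pump protons, and ATP synthase uses the proton gradient to make ATP. Most subunits are encoded in the nucleus and a small set in the mitochondrial genome. Activated lymphocytes draw on both this pathway and glycolysis, and creatine stores high-energy phosphate made from ATP.

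The samples were 2 droplet single-cell RNA sequencing (scRNA-seq) libraries of TIIs, 1 per group, sorted as live CD45.2+ cells from B16-OVA tumors. B16-OVA is a mouse melanoma line that carries chicken ovalbumin as a model antigen, and it was grown under the skin of C57BL/6J mice, which the methods describe as adult males unless stated otherwise. Creatine-treated mice received 10.5 mg of creatine by intraperitoneal injection per day, and the control library is labelled PBS. Per the labels, tumors were taken on day 14, cells from 4 tumors of a group were combined and 10000 cells were loaded, while the methods also give an earlier harvest day for TII isolation. The treatment protocol of the control library describes the creatine injection too, so the assignment rests on its title and treatment label. Because tumors were combined, differences between mice cannot be told apart from the effect of treatment, and no test or p-value was possible.

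Each library gives unique molecular identifier (UMI) counts per gene and cell, in which 1 UMI stands for 1 captured mRNA molecule. Cells were kept if they had 300 or more UMIs, 100 or more genes and no more than 25% of UMIs from mitochondrial transcripts. The control library then held 7241 cells with 79319769 UMIs and the creatine library 6229 cells with 72091124 UMIs. The median was 7688 and 8475 UMIs per cell, and 30 barcodes occurred in both libraries. Cells were assigned to 15 types by gates on marker genes, each gate counting the markers of a type with at least 1 UMI. The leading genes of the gated groups were those of the named types, such as *Cd8b1* and *Cd8a* in CD8 T cells, *Gzma* and *Ncr1* in NK cells and *C1qa* in macrophages. In the control library 25.5% of cells met no gate or the gates of several lineages, and in the creatine library this was 20.3%. UMIs were summed over the cells of a type in each library and scaled to the total of those cells as CPM, in which 10000 CPM is 1% of all UMIs. UMIs were counted at the 3′ end, so CPM was not divided by length when genes were compared. Each gene's value is a share of its cells' RNA, so the summed value does not separate fewer cells with the RNA from less RNA per cell. Cells with a gene were not counted for the members. The intervals given are exact 95% Poisson or binomial intervals and cover counting error only. A gene was called higher or lower in the creatine library when its CPM differed by at least 1.2-fold, the interval of the ratio did not hold 1 and both libraries together had at least 50 UMIs, and "rose" and "fell" are used only of such genes. Under this rule 38 of the 86 members were called in none of the 6 main types (CD8 T cells, regulatory T cells (Tregs), NK cells, macrophages, classical monocytes and conventional dendritic cells (cDCs, here cDC1, cDC2 and migratory dendritic cells together)), and 5 of those had under 50 UMIs in every one of them. Calls over several types, and calls under alternative settings, were counted for members only, so such counts have no share of all genes beside them.

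The summed level of the members differed more between cell types than between the libraries. These genes took 2.68% of the UMIs of control CD8 T cells and 2.52% of those of creatine CD8 T cells. Cells with melanoma markers, which the CD45 sort should remove and of which 20 control and 10 creatine cells remained, had the highest sums at 33285 and 35430 CPM. B cells had the lowest at 12373 and 13127 CPM, followed by neutrophils at 15988 and 14694 CPM. Tregs had 25205 and 22739 CPM, macrophages 23488 and 22946 CPM, classical monocytes 22352 and 20074 CPM, and NK cells 20102 and 20941 CPM. Among dendritic cells, cDC1 had 24128 and 25058 CPM, cDC2 23103 and 20408 CPM, and migratory dendritic cells 16876 and 18788 CPM. In both libraries, B cells, neutrophils, nonclassical monocytes and gamma-delta T cells (18787 and 19614 CPM) lay below the 6 main types. So did migratory dendritic cells taken alone, which are also part of the cDCs. The order in the middle changed between libraries, with NK cells below classical monocytes in the control library and above them in the creatine library. These levels and their order come from summed UMIs, in which cells with many UMIs count most. Median UMIs per cell were 15467 in the 883 control macrophages and 23562 in the 317 creatine macrophages. They were 4109 in the 731 control NK cells and 5601 in the 1181 creatine NK cells. CD8 T cells had 9878 and 11884, Tregs 5184.5 and 6089.5, classical monocytes 7866 and 9485, and cDCs 13818 and 12788.5. Counting every cell alike moved 26 of 30 levels, and the changes ran from −32.4% to −0.3%.

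**Figure D1:**
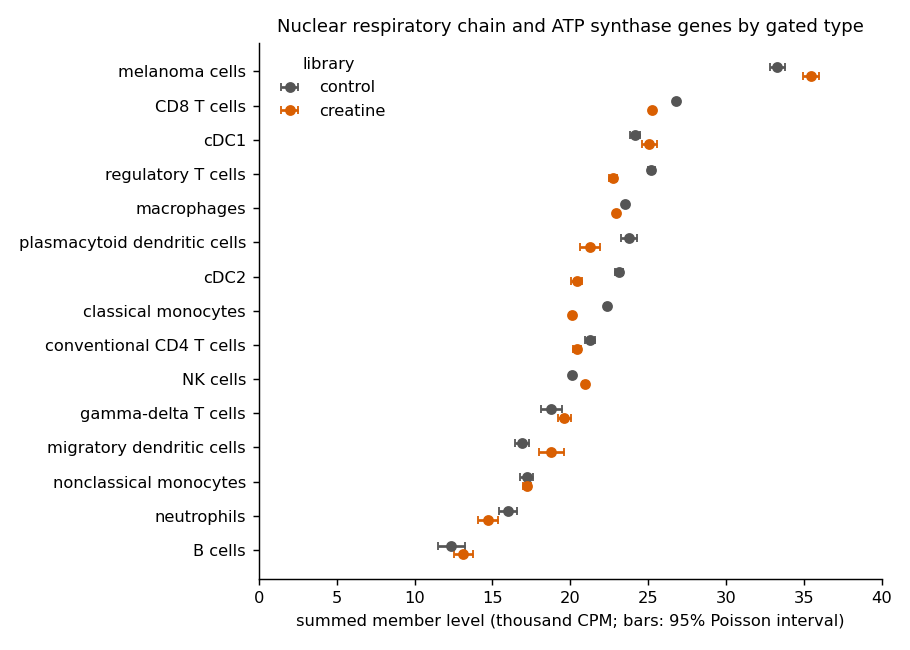
Summed level of the nuclear respiratory chain and ATP synthase genes in each gated cell type, in units of 1000 CPM, for the control library (grey) and the creatine library (orange). Bars are 95% Poisson intervals. Cells with melanoma markers lie highest, B cells lowest, and the libraries lie close to each other in most types.

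Between libraries, the sum was slightly lower with creatine in 5 of the 6 main types. The log2 ratio of creatine to control was −0.09 (−0.09 to −0.08) in CD8 T cells, −0.15 (−0.17 to −0.13) in Tregs and −0.16 (−0.17 to −0.14) in classical monocytes. It was −0.03 (−0.04 to −0.03) in macrophages and −0.05 (−0.07 to −0.03) in cDCs, and it was 0.06 (0.05 to 0.07) in NK cells. None of these sums reached the 1.2-fold rule. The signs in NK cells and macrophages depended on scaling, since NK cells gave −0.013 when mitochondrial and ribosomal protein genes were left out of the total and macrophages 0.0059 when each cell had equal weight. The cDC value joined subsets that differed, with 0.05 (0.02 to 0.09) in cDC1 and −0.18 (−0.21 to −0.15) in cDC2. Complexes I, IV and ATP synthase followed the sum, with log2 ratios between −0.08 and −0.11 in CD8 T cells and between −0.15 and −0.20 in classical monocytes. Complex III had the lowest ratio of creatine to control among the complexes in CD8 T cells, at 2754 and 2508 CPM (−0.14, −0.15 to −0.12). Complex II differed least in CD8 T cells, at 414 CPM in control and 408 CPM in creatine cells. In macrophages complex II was at 565 and 614 CPM, a log2 ratio of 0.12 (0.07 to 0.17), while the other complexes there lay between −0.02 and −0.07.

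Among the members that went the other way, *Cycs* was called higher in the most types. It encodes cytochrome c, the soluble protein that carries electrons from complex III to complex IV and that starts apoptosis when it leaves the mitochondrion. In CD8 T cells its level was 174 CPM without and 243 CPM with creatine, and the log2 ratio was 0.48 (0.43 to 0.53). In NK cells it was 98.2 and 187 CPM (0.93, 0.75 to 1.10). Macrophages had 150.1 and 223 CPM (0.57, 0.48 to 0.66) and classical monocytes had 149.6 and 208 CPM (0.47, 0.33 to 0.62). In cDCs it was 189 and 360 CPM (0.93, 0.74 to 1.12), and both subsets shared the rise, cDC1 with 279 and 521 CPM and cDC2 with 162 and 297 CPM. Tregs had 140 and 165 CPM, and the interval of their log2 ratio of 0.24 just held 0 (−0.0008 to 0.48). *Cycs* was thus called higher in 5 of the 6 main types, and it was the only member called higher in 4 or more. Over all 15 types its ratio was above 1 in 14, with an interval that did not hold 1 in 10. It was below 1 in B cells, which had 3 and 6 UMIs. Cells with melanoma markers differed little, at 416 and 422 CPM. In cDCs the size of the rise depended on which cells were kept. It was smaller, at 0.49, among the 34 control and 17 creatine cells that held no UMI of another lineage's defining markers. Among non-dividing cells it was larger, at 1.33. *Atp5o* also had a ratio above 1 in 14 of the 15 types, with an interval that did not hold 1 in 6. *Atp5o*, *Ndufs7* and *Atp5h* had ratios above 1 in all 6 main types, and were called higher in 2, 1 and 0 of them.

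The members that were lower in most types were small subunits with short transcripts. *Atp5k* encodes subunit e of ATP synthase, *Ndufa3* an accessory subunit of complex I and *Uqcr11* the smallest subunit of complex III, and each fell in 5 of the 6 main types. *Atp5e*, subunit epsilon of the ATP synthase central stalk, fell in 4. *Uqcr10*, another small subunit of complex III, *Cox7c* of complex IV, and *Ndufa1* and *Ndufc1* of complex I fell in 3 each. In CD8 T cells *Atp5k* was at 714 CPM without and 520.1 CPM with creatine (−0.46, −0.49 to −0.43). In Tregs it was at 696 and 488 CPM, in macrophages at 604 and 492 CPM, in classical monocytes at 558 and 364 CPM and in cDCs at 503 and 393 CPM. NK cells differed least, with 458 and 416 CPM. *Uqcr10* had 478 and 347 CPM in CD8 T cells (−0.46, −0.50 to −0.43), 525 and 348 CPM in Tregs (−0.59, −0.74 to −0.45) and 324 and 206 CPM in classical monocytes (−0.65, −0.76 to −0.53). *Ndufa3* showed log2 ratios between −0.34 and −0.29 in the 5 types in which it fell and −0.17 in NK cells. *Uqcr11* lay between −0.47 and −0.28 in 5 types and at −0.02 in NK cells. *Atp5e* lay between −0.41 and −0.28 where it fell, and its log2 ratio in CD8 T cells, −0.26, was just inside the 1.2-fold limit. All 8 members had a spliced length of 371 to 540 bases except *Ndufc1*, which had 1249, while the *Cycs* transcript had 3123. The median over all members was 823.5 bases. No window of 50 bases at the 3′ end of *Cycs*, *Atp5e*, *Ndufa3*, *Ndufa1*, *Ndufc1* or *Uqcr10* was shared with another gene. For *Cox7c*, 57.65% of such windows were shared, so its counts are less certain.

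**Figure D2:**
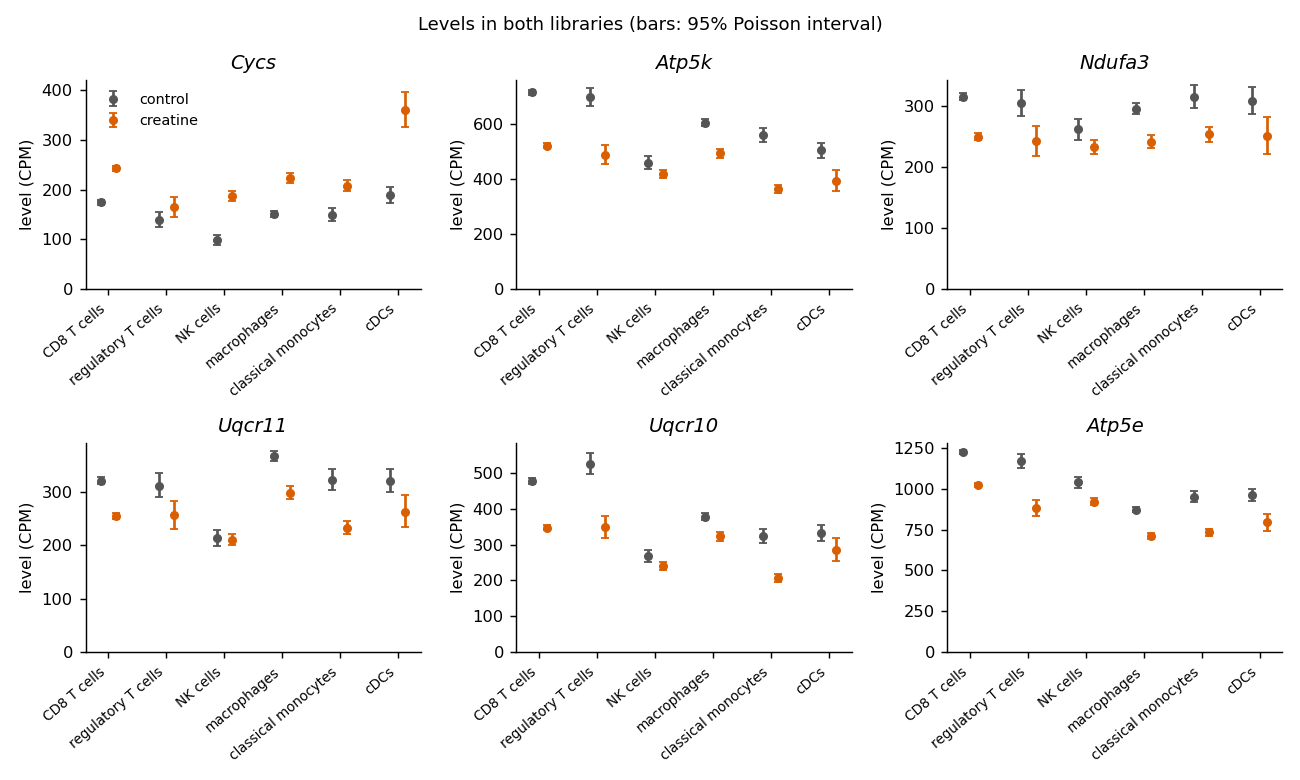
Levels of *Cycs* and of 5 short members in the 6 main cell types, in CPM, for the control library (grey) and the creatine library (orange), with 95% Poisson intervals. *Cycs* lies higher in the creatine library in all 6 types, and *Atp5k*, *Ndufa3*, *Uqcr11*, *Uqcr10* and *Atp5e* lie lower, least so in NK cells.

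The bases upstream of the *Cycs* start are shown beside those of the complex III members *Uqcr11* and *Uqcr10*. NRF1 and factors of the ETS family (which include GABP) are known activators of nuclear respiratory genes, CREB binds the cAMP response element (CRE), and Myc binds the E-box. Motif letters were searched on both strands in RefSeq promoters of GRCm38.p6, from 250 bases before to 50 bases after each gene's start, and 68 of the member genes had an entry. The NRF1 core (CGCATGCG) stood in 13.7% of 73 member promoters and in 1.87% of all 32851 promoters. The ETS motif (CCGGAAG) stood in 21.9% and 8.86%, the CRE (TGACGTCA) in 6.85% and 1.79%, and the E-box (CACGTG) in 8.22% and 7.15%. Each of the following runs holds the 250 bases before the start, 5′ to 3′ on the strand of the gene, with motif matches in capitals.
Cycs (chr6:50566570-50566819, minus strand): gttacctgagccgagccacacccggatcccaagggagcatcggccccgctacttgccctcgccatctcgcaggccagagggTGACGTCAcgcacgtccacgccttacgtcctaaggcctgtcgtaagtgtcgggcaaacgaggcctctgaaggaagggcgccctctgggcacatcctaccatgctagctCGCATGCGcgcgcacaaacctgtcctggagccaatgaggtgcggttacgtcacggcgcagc
Uqcr11 (chr10:80406822-80407071, minus strand): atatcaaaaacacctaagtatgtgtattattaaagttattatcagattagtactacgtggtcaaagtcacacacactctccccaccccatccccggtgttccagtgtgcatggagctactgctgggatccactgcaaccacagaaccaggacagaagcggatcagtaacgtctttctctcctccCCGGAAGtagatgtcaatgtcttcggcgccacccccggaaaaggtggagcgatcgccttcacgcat
Uqcr10 (chr11:4704345-4704594, minus strand): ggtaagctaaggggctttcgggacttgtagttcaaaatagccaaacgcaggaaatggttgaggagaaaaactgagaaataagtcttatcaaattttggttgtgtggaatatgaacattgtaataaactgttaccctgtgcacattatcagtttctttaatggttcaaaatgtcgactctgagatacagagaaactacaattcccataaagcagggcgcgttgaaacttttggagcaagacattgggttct
The *Cycs* promoter held a CRE that begins 169 bases and an NRF1 core that begins 61 bases before the start. *Uqcr11* held an ETS motif 66 bases before the start and also an NRF1 core, which is in the searched window but not whole in the run shown, so both *Cycs* and *Uqcr11* had that core. None of the letters searched were in the *Uqcr10* window. These matches describe sequence only, and binding was not measured.

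In CD8 T cells, 79 members had enough UMIs and only 2 were called higher, *Cycs* and *Cox6b2*, or 2.53% against 12.2% of all genes tested. *Cox6b2*, the testis form of a complex IV subunit, rested on 90 and 111 UMIs. The 6 members called lower were 7.59%, where 8.2% of all genes were, and the count was 11 when mitochondrial and ribosomal protein genes were left out of the total and 10 with TMM scaling. The 6 were *Uqcr10*, *Atp5k*, *Cox7c*, *Ndufa3*, *Uqcr11* and *Ndufa1*. *Cox7c* was at 1244 and 963 CPM (−0.37). *Cox7c* was the highest complex IV member in control cells and *Cox8a* in creatine cells, at 1098 CPM. *Ndufa13* of complex I was at 487 and 502 CPM, and *Cox4i1*, the common form of complex IV subunit 4, at 867 and 846 CPM. The median log2 ratio was −0.05 over the members and 0.04 over all genes tested. *Atp5o*, a stalk subunit of ATP synthase, was at 243 and 289 CPM (0.25) and *Ndufa4*, which belongs to complex IV in spite of its name, at 379 and 423 CPM (0.16), both inside the 1.2-fold limit. Markers of other cells also differed in CD8 T cells, in both directions. The 7 macrophage markers summed to 92.2 and 41.5 CPM. The 6 NK markers summed to 188 and 119 CPM, though 3 of them were higher with creatine. The 6 plasmacytoid dendritic cell markers summed to 21.5 and 33.4 CPM, with 1 of them higher. B cell markers differed little, at 3.23 and 3.17 CPM. The part of these markers in the values was not tested.

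In Tregs, 11 of 77 members fell and 1 rose, while 6.75% of all genes tested were called lower and 12.7% higher. The members that fell included all 8 short or small ones named above, with *Uqcr10* lowest. *Ndufb11* of complex I was the member called higher, at 209 and 262 CPM (0.32, 0.13 to 0.51). The median log2 ratio was −0.11 over the members and 0.05 over all genes. The share of Tregs with UMIs of at least 2 of 12 dividing cell genes was 40.9% in control and 31.1% in creatine cells, and dividing cell genes summed to 2016 and 1721 CPM. Without those cells the sum gave −0.10 instead of −0.15. The count of 11 was 22 when mitochondrial and ribosomal protein genes were left out of the total and 21 with TMM scaling. It was 24 without the 5% of cells with most UMIs and 8 without dividing cells. Shares of all genes were not counted at these settings. Tregs held 298 control and 190 creatine cells. Macrophage markers summed to 98.7 and 56.3 CPM in them, neutrophil markers to 127 and 68.5 CPM and cDC markers to 18.6 and 42.3 CPM, and their part in these values was not tested.

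Among the 6 main types, NK cells had the most members called higher. Of 78 members, 13 rose and 2 fell, where 9.03% of all genes tested were higher and 6.85% lower. After *Cycs*, the largest rises were those of *Atp5o* at 153 and 202 CPM (0.40, 0.26 to 0.55) and *Cox6a1*, the common form of complex IV subunit 6a, at 172 and 225 CPM (0.39, 0.25 to 0.53). The counts of *Atp5o* are less certain, since 57.4% of its 3′ windows were shared with another gene. Complex I gave 7 of the 13, all between 0.27 and 0.34. *Ndufa6* of complex I fell from 328 to 269 CPM (−0.28). The second that fell was *Ndufv1*, which carries the NADH-binding site of complex I, at 61.8 and 49.5 CPM. *Atp5e* and *Cox7a2l*, a factor that joins complexes III and IV, were next lowest at −0.18 each. The median log2 ratio was 0.10 over the members and 0.03 over all genes, and the members called higher numbered only 4 when mitochondrial and ribosomal protein genes were left out of the total. Cytosolic ribosomal protein genes made up 307834 CPM in control NK cells and 278017 CPM in creatine NK cells. Macrophage markers summed to 190 and 70.3 CPM in these cells, and their part in these values was not tested.

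*Cycs*, *Cox6a2* and *Sdhb* rose in macrophages. In all, 3 of 81 members were called higher and 8 lower, where 8.17% of all genes tested were higher and 10.2% lower. *Sdhb*, the iron-sulfur subunit of succinate dehydrogenase (complex II), rose from 171 to 210 CPM (0.30, 0.21 to 0.39). The other complex II members there were *Sdha* at 137 and 131 CPM, *Sdhc* at 134 and 142 CPM and *Sdhd* at 123 and 131 CPM, so only *Sdhb* passed the rule. *Ndufs7*, a core subunit of complex I, was the third largest rise by the naming rule but did not reach 1.2-fold. Members that fell were *Ndufa6*, *Uqcr11*, *Atp5k*, *Atp5e* and *Ndufa3* at −0.29 to −0.32, together with *Cox4i2*, *Cox7a1* and *Cox6b2*. The median log2 ratio was −0.01 over the members and −0.02 over all genes. The 4 classical monocyte markers summed to 345 and 134 CPM in the macrophage gate, and their part in these values was not tested.

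Among the 6 main types, classical monocytes had the most members called lower. Of 78 members, 21 fell and 4 rose, while 13.7% of all genes tested were called lower and 16.8% higher. *Ndufv3*, an accessory subunit of complex I, fell most, from 207 to 114 CPM (−0.86, −1.01 to −0.71), followed by *Uqcr10* and *Atp5k*. The falls were spread over the complexes, with 7 in complex I, 1 in complex II, 4 in complex III, 3 in complex IV and 6 in ATP synthase. The 4 that rose were *Cycs*, *Cox7a2l* at 318 and 407 CPM (0.35, 0.25 to 0.46), *Uqcrh*, the hinge protein of complex III, at 538 and 652 CPM (0.28), and *Ndufs1*, the largest subunit of complex I, at 35.1 and 43.8 CPM. The median log2 ratio was −0.13 over the members and 0.02 over all genes. Glycolysis genes fell much further in these cells, and some also fell in each of the other main types. In classical monocytes their sum was 8215 CPM without and 4424 CPM with creatine (−0.89), and 16 of 19 were called lower. Macrophage markers summed to 958 and 309 CPM and cDC markers to 47.1 and 98.9 CPM in the monocyte gate, and their part in these values was not tested.

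In cDCs, 4 of 78 members rose and 10 fell, where 12.6% of all genes tested were higher and 7.91% lower. The number lower was 3 among the 34 control and 17 creatine cells with no UMI of another lineage's defining markers. It was 12 with TMM scaling, and shares of all genes were not counted at either setting. *Ndufv3* was lowest at 222 and 157 CPM (−0.50), then *Ndufa2* of complex I (−0.41) and *Ndufc1* at 213 and 162 CPM (−0.40). The subsets gave different counts. In cDC2, 23 of 77 members were lower and 2 higher, where 8.54% of genes were lower and 14.9% higher, and *Ndufv3* had 329 and 77 UMIs (−0.89). In cDC1, 3 of 76 were lower and 7 higher, where 7.3% of genes were lower and 9.92% higher, and the 3 were *Ndufa3*, *Ndufa2* and *Uqcr11*. *Cycs* was the only member higher in both subsets, and *Uqcr11* and *Ndufa2* were lower in both. Whether the subsets differ was not tested, and they rest on 50 and 94 control cells and 24 and 44 creatine cells. The dividing share of cDCs was 37.4% without and 24.4% with creatine, and neutrophil markers summed to 146 and 45.4 CPM. Classical monocyte markers summed to 71.1 and 246 CPM in the same cells. In cDC2 these monocyte markers summed to 121 and 447 CPM, and in cDC1 to 4.27 and 29.0 CPM, from 4 and 12 UMIs. Neutrophil markers summed to 241 and 74.2 CPM in cDC2 and to 21.4 and 14.5 CPM in cDC1. The dividing share was 35.1% and 15.9% in cDC2, and 62.0% and 41.7% in cDC1. The part of these in the values was not tested.

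**Figure D3:**
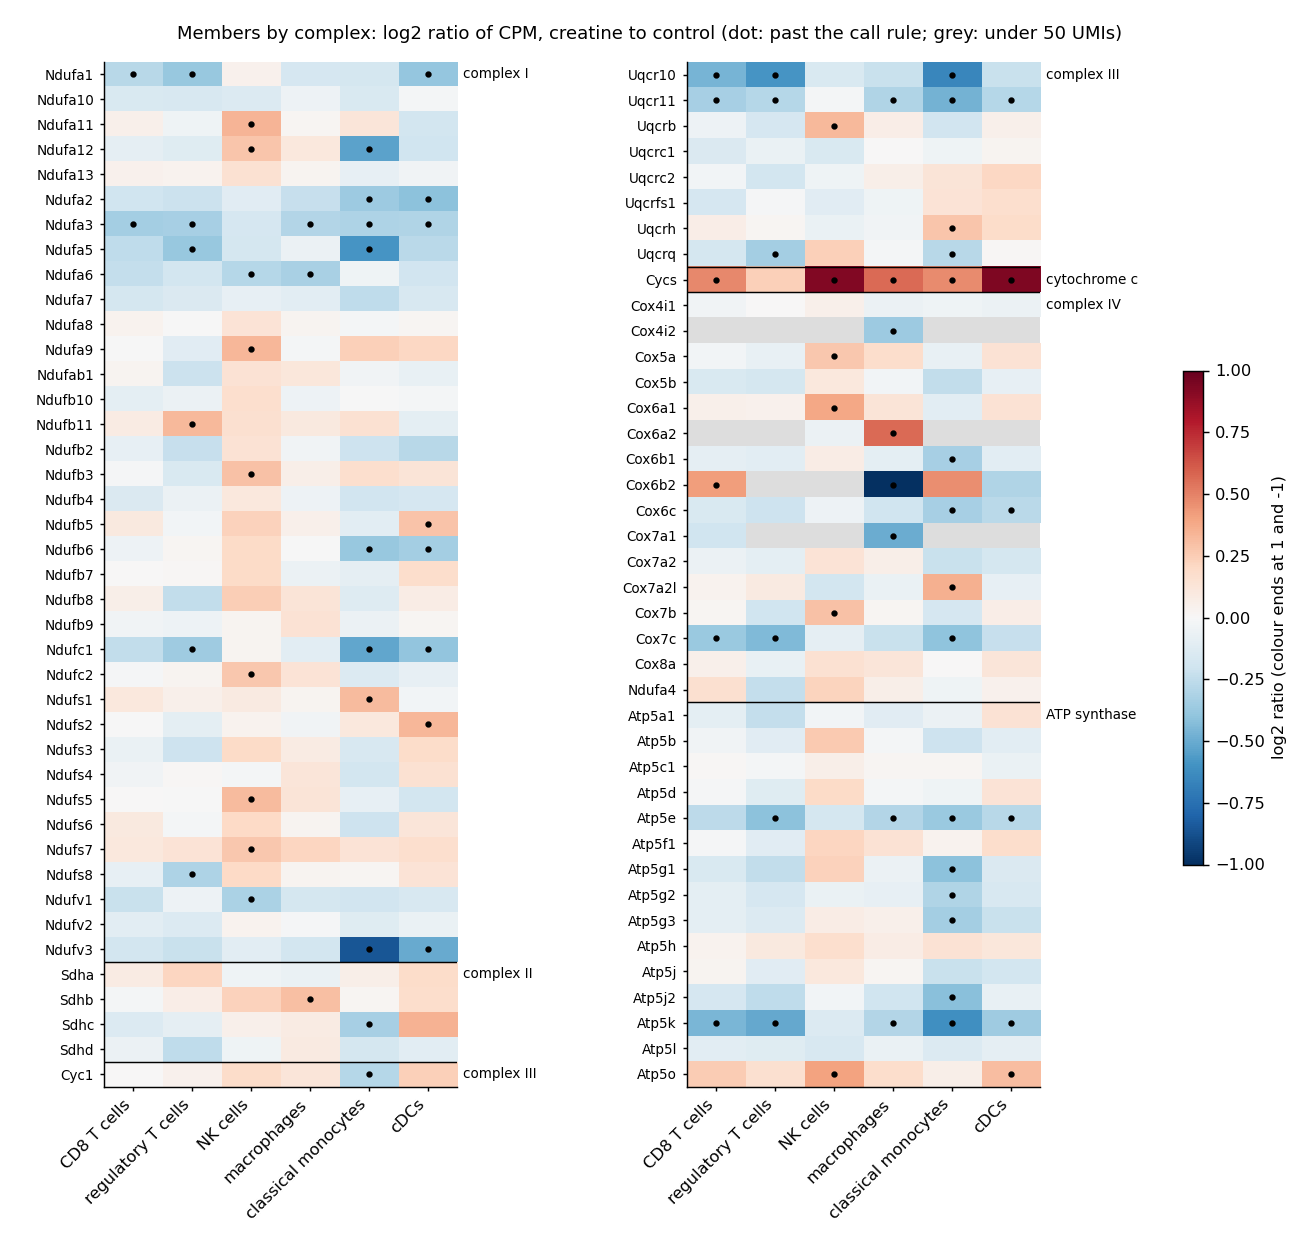
Log2 ratio of CPM, creatine to control, of the 81 members with at least 50 UMIs in at least 1 of the 6 main types, ordered by complex. Dots mark members past the call rule and grey marks fewer than 50 UMIs. The *Cycs* row is red throughout, the NK column is mostly red, and the classical monocyte column is mostly blue with *Ndufv3* at −0.86.

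Several complex IV subunits exist in 2 or more forms, and these data held mainly the common one. *Cox4i1*, *Cox6a1*, *Cox6b1*, *Cox7a2* and *Cox8a* were at 867, 279, 528, 525 and 1063 CPM in control CD8 T cells. Their alternative forms *Cox4i2*, *Cox6a2*, *Cox6b2* and *Cox7a1* each had under 3 CPM there, while *Cox8b* had 3 UMIs and *Cox8c* none in all cells of the control library. *Ndufa4l2*, a form of *Ndufa4* known from hypoxia, had 3 control UMIs and 1 creatine UMI. *Cox6a2*, known as the heart and skeletal muscle form, was the exception. Plasmacytoid dendritic cells had 359 control and 210 creatine UMIs of it, or 1065 and 1046 CPM (−0.03, −0.28 to 0.22). Its mean level in the next highest type, macrophages, was 6.51 CPM, from 82 and 63 UMIs. *Cox6a1*, by contrast, was in every type. *Cox4i2*, the lung form that is also linked to low oxygen, and *Cox7a1*, another muscle form, were highest in macrophages, with neutrophils next. *Cox4i2* had 262 and 106 UMIs there, or 16.8 and 13.1 CPM, and *Cox7a1* 266 and 98 UMIs, or 17.0 and 12.1 CPM. *Cox6b2* had 56 UMIs in control macrophages and 7 in creatine macrophages, or 3.59 and 0.862 CPM.

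Subunit c of ATP synthase forms the rotor ring and is made from 3 genes, *Atp5g1*, *Atp5g2* and *Atp5g3*. Their last 75 residues, which hold the mature protein, were the same in all 3, while the coding sequences differ. Of the coding bases of these residues, *Atp5g1* and *Atp5g2* shared 191, *Atp5g1* and *Atp5g3* 180, and *Atp5g2* and *Atp5g3* 177. The final 60 coding bases from the GENCODE M21 transcripts are given 5′ to 3′, with capitals at the positions where the 3 genes differ.
Atp5g1: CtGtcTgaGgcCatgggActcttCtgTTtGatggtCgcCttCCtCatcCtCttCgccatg
Atp5g2: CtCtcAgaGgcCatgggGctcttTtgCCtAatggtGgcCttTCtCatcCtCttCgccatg
Atp5g3: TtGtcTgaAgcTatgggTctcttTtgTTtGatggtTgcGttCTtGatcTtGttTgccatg
In control CD8 T cells the 3 genes were at 383, 635 and 378 CPM, and in creatine CD8 T cells at 343, 592 and 353 CPM. *Atp5g2* was the highest of the 3 in each of the 6 main types of the control library. All 3 fell in classical monocytes, by −0.41 for *Atp5g1*, −0.30 for *Atp5g2* and −0.34 for *Atp5g3*, and none was called in the other 5. Most of the 3′ windows of *Atp5g2* (99.1%) were shared with another gene, so that its counts are uncertain, while *Atp5g3* shared none.

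The members' level differed between CD8 T cells counted as dividing and the others. Cells with more UMIs pass the limit for dividing cells more easily. In the control library 1402 dividing cells held 701126 member UMIs, and 1095 non-dividing cells held 178022. The part of UMIs per cell in the differences below was not tested. Cells with UMIs of at least 2 dividing cell genes were 56.1% of control and 52.9% of creatine CD8 T cells. In the control library, the members summed to 23002 CPM in non-dividing and 27937 CPM in dividing cells (0.28). In the creatine library they summed to 21374 and 26584 CPM (0.31). Of 79 members, 50 were higher in dividing cells of the control library and 3 lower, where 28% of all genes were higher and 22.3% lower. In the creatine library 54 were higher and 3 lower, where 29.3% of all genes were higher and 21.1% lower. The 2 libraries shared 47 of the members called higher, or 94.0% of the control list and 87.0% of the creatine list. They also shared the 3 called lower, *Uqcrh*, *Ndufa6* and *Cox7a2l*. The overlap between libraries was not counted for all genes. *Cycs* went from 92.3 CPM in non-dividing to 200 CPM in dividing control cells (1.12) and from 148 to 277 CPM in the creatine library (0.91). *Cyc1*, the cytochrome c1 subunit of complex III, followed with 69.9 and 134 CPM in the control library (0.94). *Cox7a2l* went from 446 to 304 CPM (−0.55) in the control library and from 455 to 306 CPM (−0.57) in the creatine library. The mitochondrial genome hardly differed by division, with 49560 and 50917 CPM in the control library. The members' higher level was not particular to them. In the control library mitochondrial ribosomal protein genes gave 0.39, TCA cycle genes 0.40, glycolysis genes 0.67 and assembly factors 0.17. Cytosolic ribosomal protein genes were lower in dividing cells, at 326844 and 283092 CPM (−0.21). The part of this in the members' higher share was not tested.

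Within each state, *Cycs* and the other members named here kept the direction that they had in all CD8 T cells. *Cycs* was higher with creatine among non-dividing CD8 T cells (0.68, 0.54 to 0.81) and among dividing ones (0.47, 0.42 to 0.53). *Atp5k* was lower in both, at −0.44 and −0.45, and so were *Uqcr10* at −0.39 and −0.46 and *Cox7c* at −0.35 and −0.36. *Ndufa1* was at −0.36 in non-dividing and −0.25 in dividing cells, the latter inside the 1.2-fold limit. The part of the dividing share in the differences between libraries was not tested. *Cox6b2* had 78 and 98 UMIs in dividing cells (0.50) and 12 and 13 in non-dividing cells, too few for a call.

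**Figure D4:**
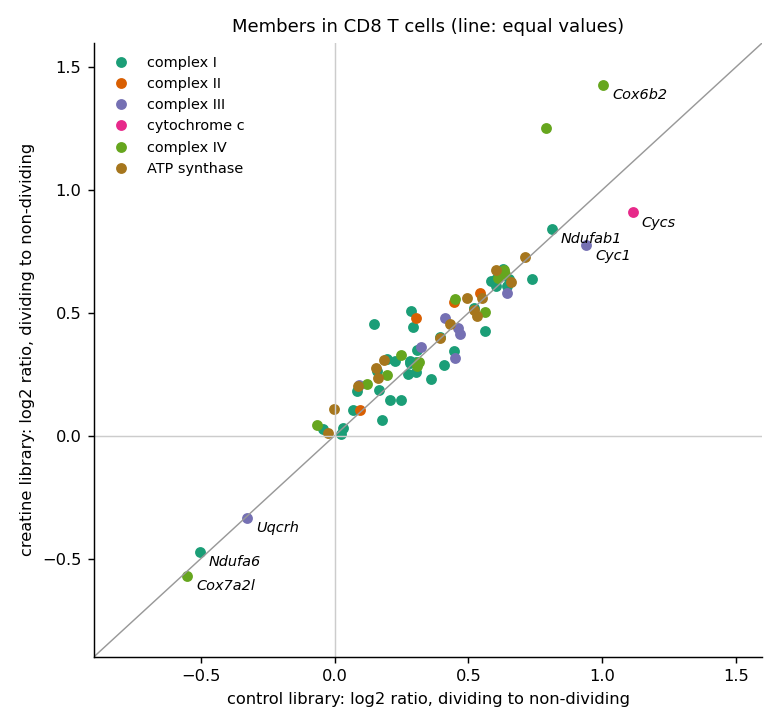
Log2 ratio of CPM in dividing to non-dividing CD8 T cells for the 79 members with at least 50 UMIs, with the control library on the x axis and the creatine library on the y axis, coloured by complex. Most points lie above 0 in both libraries and near the line of equal values, and *Uqcrh*, *Ndufa6* and *Cox7a2l* lie below 0 in both.

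Of 4 classes of transcript length, the shortest, under 600 bases, had the lowest median ratio in each of the 6 main types, among members and among other genes. Genes other than members with a spliced length under 600 bases had a median log2 ratio of −0.12 in CD8 T cells, −0.25 in Tregs, −0.13 in NK cells, −0.18 in macrophages, −0.12 in classical monocytes and −0.12 in cDCs. Those of 2000 bases or more had 0.06, 0.10, 0.02, −0.03, 0.06 and 0.05 in the same order. The members under 600 bases had medians of −0.20, −0.18, −0.084, −0.22, −0.20 and −0.20. The 9 members of 2000 bases or more had −0.085, −0.16, 0.087, −0.032, −0.062 and −0.017, so in Tregs the medians of the shortest and longest classes differed little. Each length is that of 1 annotated transcript per gene, which need not be the one expressed. The longest class included *Atp5g1* (4715 bases, of which 408 are coding), *Ndufb2* (4371) and *Ndufab1* (3479). Above 600 bases the members' medians in CD8 T cells lay at −0.031, −0.034 and −0.085. Other genes above 600 bases went down with length in NK cells (0.075, 0.051 and 0.022) and macrophages (0.0036, −0.0053 and −0.027). All 6 members called lower in CD8 T cells were under 600 bases, as were 7 of 11 in Tregs, 7 of 8 in macrophages, 7 of 21 in classical monocytes and 6 of 10 in cDCs. Of the members tested, 19 of 79, 17 of 77, 19 of 81, 18 of 78 and 18 of 78 were under 600 bases, in the same order. In NK cells 17 of 78 were, of which 3 rose and 1 fell. In CD8 T cells and in classical monocytes, 1 such member rose. For the 13 protein genes of the mitochondrial genome, lengths are those annotated for each gene, which need not be the lengths of the mRNAs. Among them, *mt-Nd3* (348 bases) fell in all 6 main types and *mt-Nd4l* (297 bases) in 5, both subunits of complex I. *mt-Atp8* (204 bases) was called in none. The only other call among the 13 was *mt-Nd1* in Tregs. The part of transcript length in the falls of short members was not tested.

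**Figure D5:**
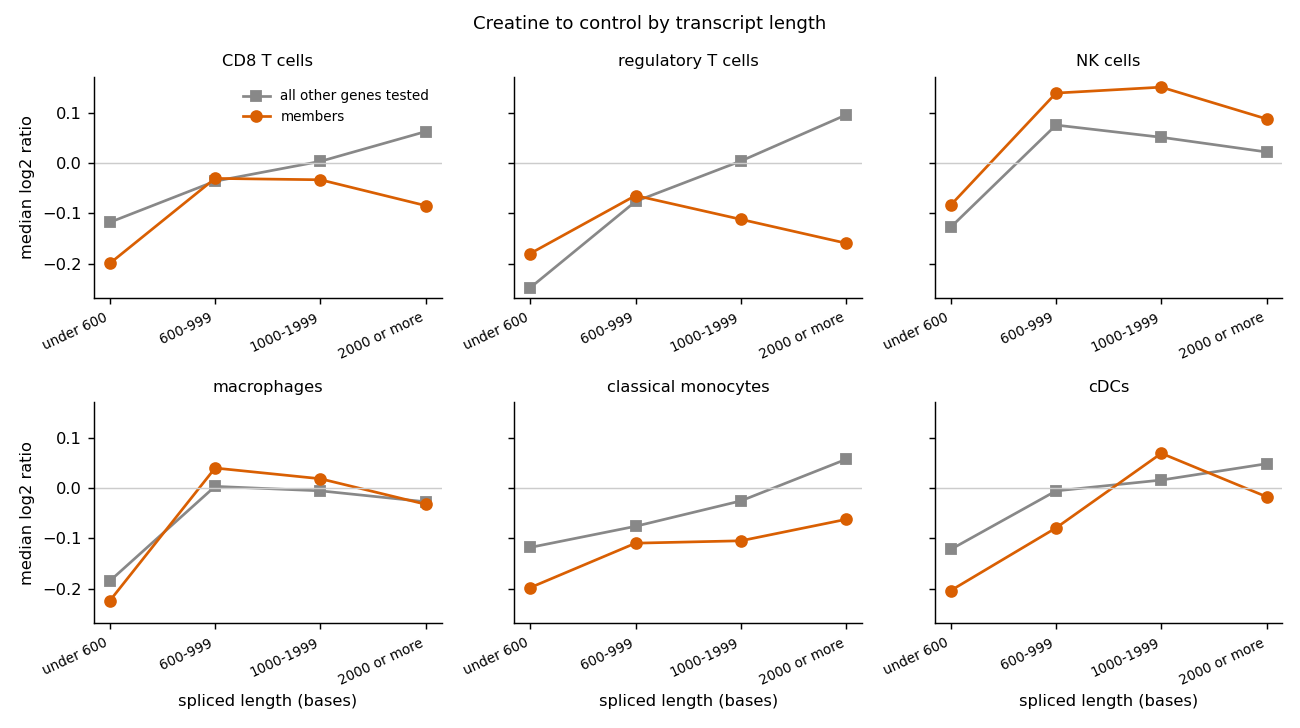
Median log2 ratio of CPM, creatine to control, by spliced transcript length in 4 classes, for members (orange) and all other genes tested (grey) in the 6 main types. The class under 600 bases is lowest in every panel for the other genes, with medians from −0.25 to −0.12, and for the members in each of the 6 types.

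Genes around the pathway were counted by the same rule. Of the glycolysis genes tested, 16 of 19 fell in classical monocytes and 16 of 19 in cDCs. In macrophages 8 of 20 fell, in CD8 T cells 5 of 20, in Tregs 4 of 18 and in NK cells 4 of 19. Of all genes tested, 13.7%, 7.91%, 10.2%, 8.2%, 6.75% and 6.85% were called lower in the same order. Those called higher were 16.8%, 12.6%, 8.17%, 12.2%, 12.7% and 9.03% in that order, and these shares apply to the lists below too. In each of cDCs, macrophages and Tregs, 1 glycolysis gene rose. Of 13 TCA cycle genes, none was called in CD8 T cells or macrophages, 1 fell in each of Tregs, NK cells and classical monocytes, and 1 rose in cDCs (*Mdh2*, mitochondrial malate dehydrogenase, at 0.50). Of 50 assembly factors, 49 were tested in CD8 T cells, with 4 higher and 4 lower. In macrophages 6 of 48 were higher and 4 lower, and in classical monocytes 6 of 44 were higher and 5 lower. In NK cells 2 of 47 were higher and 2 lower. In cDCs 2 of 31 were higher and 2 lower, and in Tregs 0 of 36 were higher and 2 lower. *Uqcc1*, an assembly factor of complex III, was highest among them in CD8 T cells (0.91, from 334 and 577 UMIs) and lower in NK cells (−0.70, from 57 and 78 UMIs). *Pet100*, an assembly factor of complex IV, fell in CD8 T cells, macrophages, classical monocytes and cDCs, with log2 ratios from −0.48 to −0.30. *Sdhaf1*, an assembly factor of complex II, fell in CD8 T cells (−0.56), NK cells (−0.37) and classical monocytes (−0.58). Of 77 mitochondrial ribosomal protein genes tested, 10 were higher and 0 lower in NK cells, 3 higher and 15 lower in classical monocytes, 4 higher and 1 lower in macrophages, and 0 higher and 1 lower in CD8 T cells. In cDCs 4 of 76 were higher and 1 lower, and in Tregs 0 of 74 were higher and 10 lower. Among 12 regulators, *Esrra*, a nuclear receptor that drives respiratory genes, rose in CD8 T cells (0.34) and classical monocytes (0.48). *Myc*, which promotes growth and mitochondrial genes, rose in NK cells (0.42) and fell in macrophages (−0.37) and classical monocytes (−1.33, from 58 and 45 UMIs). *Nrf1* was called in cDCs alone (0.71, from 44 and 31 UMIs).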

How the data were processed

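The authors aligned the reads to mm10 with Cell Ranger 3.0.2 (per the labels) and deposited, per library, raw UMI counts of genes in called cells, without normalization. Their later aggregation and clustering were not used. The cell filter is the one in the study's methods, and it removed 408 control and 274 creatine cells here, all for mitochondrial UMIs, more than the methods state. No doublet caller was run. Cells meeting the gates of more than 1 lineage were left out, with some exceptions. Cells that passed the phagocyte gate and also a dendritic cell, plasmacytoid dendritic cell or neutrophil gate were not counted as phagocytes and could stay in the other gate. Cells that passed both dendritic gates counted as plasmacytoid. Gates used 94 markers (at least 3 for T, NK or dendritic cells and 4 for phagocytes), and their thresholds were set after the data had been seen. Members, lists and markers were chosen with earlier results of these data known.

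UMIs were summed per gate and library in Python 3.11.15 (numpy 2.4.6, scipy 1.17.1, pandas 2.3.3, matplotlib 3.10.9, biopython 1.88). With 1 library per group no test was made. The call rule and intervals were checked on simulated data. Named members were the 3 largest rises and falls in each main type (at least 100 UMIs, intervals that do not overlap), the 3 most restricted to a type, isoform families, complex II, *Cyc1*, *Cycs*, the highest member of each complex and 6 genes the study displayed. *Ndufa1*, *Ndufa12*, *Ndufs1*, *Ndufv1* and the genes of other lists were named after their values were seen. Gene positions and lengths are from GENCODE M21 (GRCm38), matched by Ensembl identifier. The length of a gene is that of 1 transcript, the one annotated as principal and, among equals or without one, the longest. For shared sequence, each run of 50 bases within the final 500 of a transcript was looked up in all other genes. Cell Ranger does not count reads that match several genes equally, which lowers counts of such genes. Alternatives were stricter cell limits (500 genes, 10% mitochondrial UMIs), CPM without mitochondrial and ribosomal protein genes, TMM scaling (edgeR 4.0.16 in R 4.3.3), equal weight for each cell, a gate without defining markers of other lineages, leaving out the 5% of cells with most UMIs or the dividing cells, and other call limits.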

Additional observations from a re-analysis of the deposited data

Results flagged for a closer look

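*Cox6b2* was called higher in CD8 T cells (log2 ratio 0.42) and lower in macrophages (−2.06), and *Ndufa12*, an accessory subunit of complex I, was higher in NK cells (0.28) and lower in classical monocytes (−0.54). With 1 library per group, these differences between cell types were not tested. The summed level of all members also had counting intervals on opposite sides of 0, with 0.059 in NK cells against −0.087 in CD8 T cells, −0.15 in Tregs, −0.034 in macrophages, −0.16 in classical monocytes and −0.050 in cDCs, and that difference was not tested either.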

How the results depend on the processing

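No paired analysis was possible because each group had 1 library. Of 49 alternative values of the summed log2 ratio, 47 kept the direction. Without mitochondrial and ribosomal protein genes, NK cells turned to −0.013, and CD8 T cells gave −0.13, Tregs −0.22, macrophages −0.084, classical monocytes −0.18 and cDCs −0.079. TMM scaling gave −0.12 in CD8 T cells, −0.22 in Tregs, −0.019 in macrophages and −0.086 in cDCs. With equal weight for each cell, macrophages turned to 0.0059 and classical monocytes gave −0.13. The gate without other lineages' markers gave −0.078 in CD8 T cells, 0.035 in NK cells and −0.023 in macrophages. Without the 5% of cells with most UMIs, CD8 T cells gave −0.094 and Tregs −0.22. Without dividing cells, CD8 T cells gave −0.11, Tregs −0.10 and macrophages −0.062. Leaving out members with over 50% shared windows, an alternative chosen after seeing the data, gave −0.079 in CD8 T cells. The causes were not tested.

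Counts of called members moved with the settings, and the share of all genes called was not counted under the alternatives. In Tregs, 22 fell without mitochondrial and ribosomal protein genes and 24 without the cells with most UMIs, against 11. In CD8 T cells 11 fell without mitochondrial and ribosomal protein genes, against 6. In NK cells 4 to 14 rose over the alternatives, against 13, and in cDCs 3 to 12 fell, against 10. At a fold of 1.5, 4 members fell in classical monocytes and 1 in each of Tregs and macrophages, and 1 rose in NK cells and 1 in cDCs. The log2 ratio of *Cycs* ranged from 0.44 to 0.68 in CD8 T cells, 0.85 to 1.03 in NK cells, 0.52 to 0.70 in macrophages, 0.43 to 0.48 in classical monocytes and 0.49 to 1.33 in cDCs. Depth limits members under 50 UMIs and the small dendritic cell subsets. With 1 library per group, no value carries an error between animals.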
